A study of Mus musculus with 4 samples.

Results

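The genes described here are 10 genes of the actin cytoskeleton and of the contractile apparatus of smooth muscle, taken by their symbols from the files of 4 libraries. They are the cytoplasmic actins Actb and Actg1, the smooth muscle actin Acta2, the actinins Actn1 and Actn4, the contractile partners Tagln, Myl9 and Cnn1, and the tropomyosins Tpm1 and Tpm4. All 10 were found among the 23259 genes matched between the files, and all 10 passed the filter on low values, which asked for 1 FPKM or more on average and kept 11932 genes in all. The study compared mouse embryonic stem cells without and with Gcn5 (Kat2a), an enzyme that acetylates histones within the SAGA and ATAC complexes, to see which expression levels differ in KO. Each library is total RNA, depleted of ribosomal RNA and sequenced with a stranded kit, from 1 clone.

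The KO clones are 6-C4 of founder line 6 and 4-C2 of founder line 4, in which Cre had removed exons 3 to 18 of Gcn5. The WT clones are 6-1 of line 6 and 4-1 of line 4, which kept those exons. All 4 clones descend from Gcn5 flox/flox blastocysts, had a normal male karyotype, and were grown on mitomycin-treated embryonic fibroblasts in 15% serum with 1000 U/mL of LIF. Cells of each line were transfected transiently with a vector in which the EF1α promoter drives an EGFP-Cre fusion and were sorted by GFP after 72 hours. The KO clones were picked from GFP-positive and the WT clones from GFP-negative cells. Each line therefore supplies 1 KO and 1 WT clone, and each genotype has 2 clones. The line is called replicate 2 (line 6) or replicate 1 (line 4) in the labels.

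Actin monomers polymerise into filaments that give a cell its cortex, its stress fibres and its shape. Tropomyosins lie along the filament, actinins cross-link filaments, and myosin II pulls on them once its regulatory light chain is phosphorylated. Acta2, Tagln, Cnn1 and Myl9 are best known from smooth muscle and are also made by activated fibroblasts. Many of these genes are textbook targets of serum response factor (Srf), which binds a DNA element called the CArG box and is switched on when its cofactors of the Mkl family are released from actin monomers.

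Promoter sequences are shown for Acta2, Myl9 and Cnn1, which are among the members that differed most between the founder lines, and for Actg1, the cytoplasmic actin with a promoter entry. RefSeq promoter windows on GRCm38.p6 (250 bases before to 50 after the start) were at hand for 8 of the 10 genes. The sequences are printed 5′ to 3′ on the gene's strand, in lower case. Capitals mark a CArG box or a variant with 1 G or C in its A/T core. The first 3 lines are Actg1 (chr11:120348543-120348745, minus strand), Myl9 (chr2:156775214-156775407, plus strand) and Cnn1 (chr9:22099003-22099215, plus strand), each the part of the window upstream of every annotated start of its gene. The last 2 are windows of 30 bases around the variants in the Acta2 promoter (chr19:34255438-34255467 and chr19:34255388-34255417, minus strand), which lie downstream of the most upstream annotated start of that gene.
Actg1: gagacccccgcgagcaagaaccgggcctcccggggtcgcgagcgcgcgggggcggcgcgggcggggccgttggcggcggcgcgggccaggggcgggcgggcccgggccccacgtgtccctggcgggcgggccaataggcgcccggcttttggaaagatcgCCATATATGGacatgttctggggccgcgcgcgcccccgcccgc
Myl9: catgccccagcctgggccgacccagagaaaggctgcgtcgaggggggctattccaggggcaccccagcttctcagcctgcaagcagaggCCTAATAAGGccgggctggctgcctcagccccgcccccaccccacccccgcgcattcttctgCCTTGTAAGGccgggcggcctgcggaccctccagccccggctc
Cnn1: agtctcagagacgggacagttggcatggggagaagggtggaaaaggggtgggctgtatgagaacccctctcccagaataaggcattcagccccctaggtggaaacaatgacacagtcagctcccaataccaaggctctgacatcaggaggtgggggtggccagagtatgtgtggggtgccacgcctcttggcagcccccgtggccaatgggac
Acta2, distal: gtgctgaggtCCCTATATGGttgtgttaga
Acta2, proximal: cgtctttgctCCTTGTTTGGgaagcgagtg
Actg1 holds a CArG box from position -90 to -81 relative to the start and Myl9 one from -161 to -152, with a variant from -99 to -90. Acta2 holds variants from -84 to -75 and from -34 to -25. The pattern reads the same on both strands. Of all 32851 RefSeq promoter windows, 1.63% hold a CArG box and 9.98% hold a box or a variant, against 2 and 3 of the 8 windows of these genes. The windows of Actn1, Actn4, Cnn1, Tpm1 and Tpm4 hold neither. A match is a description of letters and was not tested as a binding site.

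The files give 1 value per gene and library, FPKM scaled to spike-in RNA, and the depth behind it is unknown. FPKM is per transcript length, so levels of different genes can be set side by side. All genes together summed to 538257 and 520491 FPKM in the KO clones of lines 6 and 4, against 680168 and 757931 FPKM in the WT clones. The median log2 difference between KO and WT over all tested genes was -0.19 in line 6 and -0.44 in line 4. Kat2a stood at 11.5 FPKM in each KO clone, against 34.4 and 38.7 FPKM in the WT clones of lines 6 and 4. The 14 embryonic stem cell markers were all tested and summed to 3662 and 3519 FPKM in KO, against 4426 and 5561 FPKM in WT. Their most abundant were Dppa5a at 1977 and 1962 FPKM in KO, against 2390 and 3124 FPKM in WT, Pou5f1 at 639.97 and 454 FPKM, against 782 and 715 FPKM, and Tdgf1 at 481 and 503 FPKM, against 578 and 816 FPKM. All 10 defining fibroblast markers were listed, led by Col1a2 at 38.1 and 41.5 FPKM in KO and 28.2 and 53.5 FPKM in WT. Lum, Pdgfrb, Prrx1 and Twist2 were the lowest of them, at 0.339 to 1.98 FPKM. The 6 defining smooth muscle markers were at or near 0 or low: Myh11, Lmod1, Myocd and Synpo2 stayed under 1 FPKM in every library. Des was listed at 3.56 to 9.25 FPKM and Actg2 at 3.78 to 6.95 FPKM. The 12 defining markers of cardiac and skeletal muscle summed to 19.5 and 18.0 FPKM in KO, against 25.3 and 21.6 FPKM in WT.

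The cytoplasmic actins were by far the most abundant of these genes. Over the 4 libraries Actb averaged 1544 FPKM and Actg1 1035 FPKM, and both stood at percentile 99.4 or higher of all genes in each library. A second tier held Actn4 at 91.1 FPKM, Tpm4 at 59.5, Actn1 at 58.8, Tpm1 at 56.3, Acta2 at 49.2 and Tagln at 40.2 FPKM on average. Within this tier the order from Tpm4 to Acta2 differed between libraries: Acta2 stood above Tpm4 in the KO clone of line 6 and below it in the other libraries. Myl9 averaged 15.0 FPKM and Cnn1 4.80 FPKM. Reads of Actb, Actg1 and the muscle actins can match a paralog or a processed pseudogene, and the handling of such reads is not stated in the labels, so the split between actins is uncertain. Capn12 overlaps Actn4 and Pcsk7 overlaps Tagln on the opposite strand in the GENCODE annotation of GRCm38, at 5.11 and 2.07 FPKM in the KO clone and 7.86 and 3.02 FPKM in the WT clone of line 4. Whether the counting used strand is not stated in the labels.

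**Figure D1:**
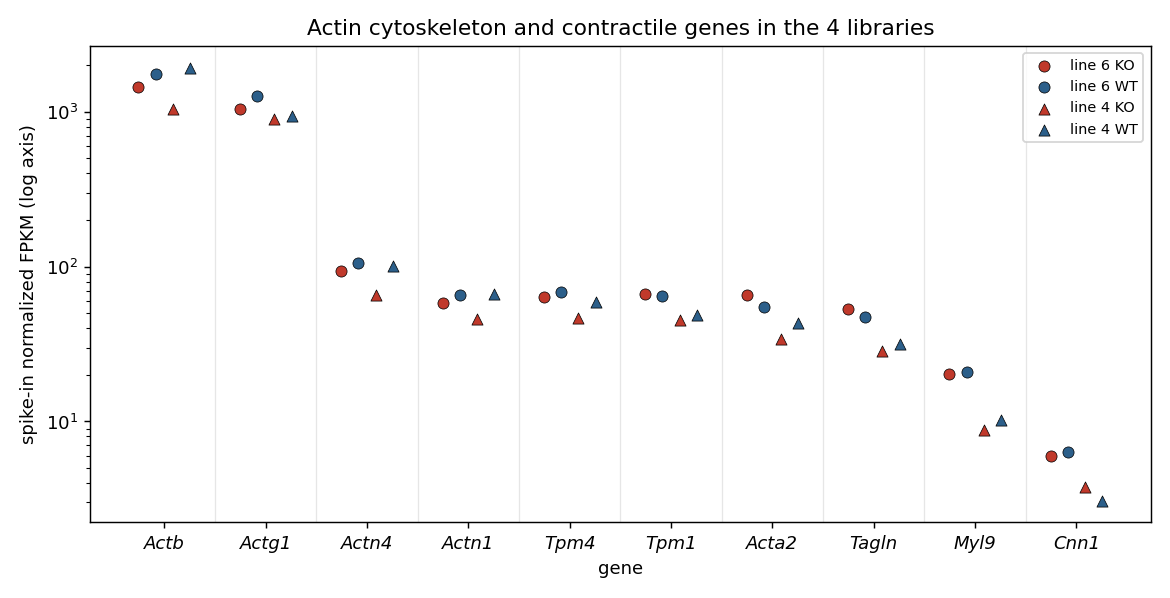
Spike-in normalized FPKM (log axis) of the 10 genes, 1 point per library, with KO red, WT blue, line 6 as circles and line 4 as triangles. Actb and Actg1 stand at 894 FPKM or more in every library, and the circles of Tpm1, Acta2, Tagln, Myl9 and Cnn1 lie above their triangles.

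Between KO and WT, Actb was the member with the largest difference on uncentred values. Actb, the main cytoplasmic actin of non-muscle cells, stood at 1446 and 1046 FPKM in the KO clones of lines 6 and 4, against 1756 and 1926 FPKM in the WT clones. Both KO values lie below both WT values, and the line 4 KO clone is the lowest. The mean was 1246 ± 282 FPKM in KO and 1841 ± 120 FPKM in WT (SD, n = 2 each). The log2 difference was -0.58 (95% interval -1.002 to -0.158) and did not pass over all genes (limma adjusted p = 0.445). With the founder line as a block it passed (limma adjusted p = 0.0478), in a fit that gave all genes of one level the same spread and called 0.796% of genes. After each library was centred on its median the blocked difference was -0.27 and did not pass (limma adjusted p = 0.832). On that scale Cnn1, Tagln and Tpm1 differed more, at 0.38, 0.30 and 0.29. Quantile normalization, with no block, gave -0.06 for Actb. When single libraries were left out, with no block, the difference of Actb ran from -0.81 to -0.35.

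Actg1, the second cytoplasmic actin, which differs from Actb by a few residues at the amino end, did not share the difference of Actb in line 4. It stood at 1039 and 894 FPKM in the KO clones of lines 6 and 4, against 1267 and 938 FPKM in the WT clones. Both line 6 values lie above both line 4 values, and the genotypes overlap. The KO minus WT difference of Actg1 was -0.29 in line 6 and -0.07 in line 4, against -0.28 and -0.88 for Actb. Over both lines it was -0.18 (95% interval -0.60 to 0.25, limma adjusted p = 0.507).

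The ratio of the actins within a library does not depend on the spike-in scale if each library was scaled by a single factor. The sources used here do not state whether it was. A scaling that varied with level would enter ratios of genes at unlike levels, such as Acta2 per Actb, and was not tested. Actg1 per Actb was 0.719 and 0.854 in the KO clones of lines 6 and 4, against 0.721 and 0.487 in the WT clones. The KO value was 0.996 times the WT value in line 6 and 1.75 times in line 4. The WT clone of line 4 is the library that stands apart, with the highest Actb value and an Actg1 value below both of line 6. Acta2 per Actb was 0.0450 and 0.0324 in KO, against 0.0313 and 0.0223 in WT, which is 1.44 times as high in KO in line 6 and 1.45 times in line 4. This ratio was higher in KO in both lines, although Acta2 itself was higher in KO in line 6 and lower in line 4. Tpm4 per Tpm1 was 0.946 and 1.02 in KO, against 1.07 and 1.21 in WT, lower in KO in both lines. Actn4 per Actn1 was 1.61 and 1.43 in KO, against 1.61 and 1.52 in WT. With 1 pair of clones per line these ratios are descriptions with no test.

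**Figure D2:**
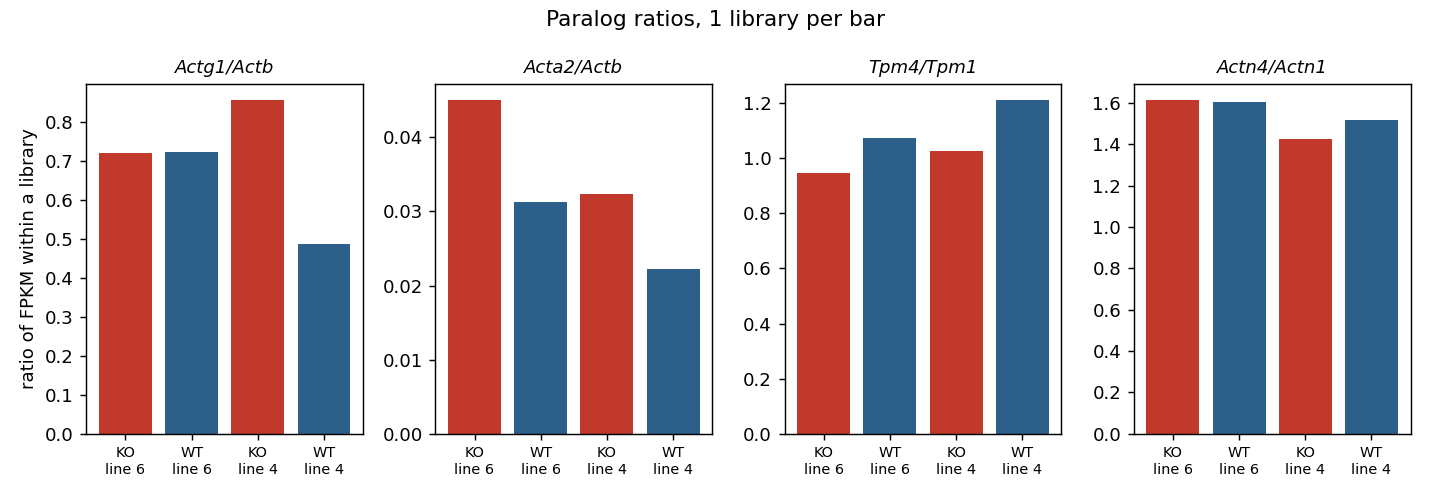
Ratio of FPKM values of 2 genes within a library (vertical axes, from 0), 1 bar per library, with KO red and WT blue. Actg1 per Actb is lowest in the WT clone of line 4 at 0.487, and Acta2 per Actb is higher in KO than in WT in each line.

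The actinins, which bundle actin filaments and anchor them at adhesions, had lower values in both KO clones than in both WT clones. Actn4 stood at 93.2 and 65.2 FPKM in the KO clones of lines 6 and 4, against 105 and 101 FPKM in the WT clones. Actn1 stood at 57.8 and 45.6 FPKM in KO, against 65.6 and 66.4 FPKM in WT. The WT clones lie close together for both genes, and the KO clone of line 4 is the lowest. The log2 differences were -0.40 for Actn4 (95% interval -0.86 to 0.07) and -0.36 for Actn1 (95% interval -0.81 to 0.10), and neither passed (limma adjusted p = 0.445 for each). Such an order is common in these data: 59.8% of tested genes had both KO values below both WT values, against 3 of the 10 members, which are Actb, Actn1 and Actn4. Relative to the median gene of the library both actinins lay near it, at -0.03 in line 6 for each, and at -0.16 for Actn4 and -0.07 for Actn1 in line 4.

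Acta2, a defining protein of smooth muscle and of myofibroblasts, stood at 65.1 and 33.9 FPKM in the KO clones of lines 6 and 4, against 54.9 and 42.9 FPKM in the WT clones. The KO values enclose the WT values, so the genotypes overlap fully. KO minus WT was 0.24 in line 6 and -0.33 in line 4, and over both lines -0.05 (95% interval -0.61 to 0.52, limma adjusted p = 0.888).

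Tagln, an actin-binding protein also called SM22, followed the same order. It stood at 53.0 and 28.4 FPKM in KO, against 47.5 and 31.8 FPKM in WT, a difference of 0.15 in line 6 and -0.16 in line 4. Over both lines Tagln lay at -0.0012 (95% interval -0.58 to 0.58, limma adjusted p = 0.998). Cnn1, calponin, which binds actin and restrains myosin in smooth muscle, went the other way, at 6.03 and 3.75 FPKM in KO, against 6.33 and 3.09 FPKM in WT. Its difference was -0.06 in line 6 and 0.22 in line 4 (limma adjusted p = 0.832 over both lines). Myl9, a regulatory light chain of myosin II, stood at 20.2 and 8.81 FPKM in KO, against 20.9 and 10.2 FPKM in WT (log2 difference -0.12, 95% interval -0.83 to 0.59, limma adjusted p = 0.77).

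The tropomyosins differed little between the genotypes. Tpm1 stood at 67.0 and 45.5 FPKM in the KO clones of lines 6 and 4, against 64.1 and 48.7 FPKM in the WT clones (log2 difference -0.02, 95% interval -0.52 to 0.48, limma adjusted p = 0.95). Tpm4 stood at 63.4 and 46.6 FPKM in KO, against 68.9 and 59.0 FPKM in WT (log2 difference -0.23, 95% interval -0.70 to 0.25, limma adjusted p = 0.471). For Tpm1 the genotypes overlap and the lines do not. Tpm4 was lower in KO in both lines.

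Of the 10 members, 0 passed the test between KO and WT, in which limma called 0.0168% of tested genes. An unadjusted p under 0.05 was seen for 1 member (Actb), against 661 of the 11932 tested genes. All members but Cnn1 were lower over the 2 lines together, and 6 were lower in both lines, against 86.3% of tested genes. The median difference of the members was -0.15, against -0.32 for all tested genes. Relative to the median gene of the library, 6 members lay above it in both lines, against 23.5% of tested genes. These are Acta2, Tagln, Myl9, Cnn1, Tpm1 and Tpm4. On centred values the sign of the difference over both lines turned positive for these 6, of which Cnn1 was positive already, and for Actg1, while Actb, Actn1 and Actn4 stayed negative. Leaving out WT replicate 2 or KO replicate 1 turned the members' median to 0.08 and 0.12. Leaving out WT replicate 1 or KO replicate 2 gave -0.34 and -0.48. Without 1 library the fit sets lines as well as genotypes against each other.

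**Figure D3:**
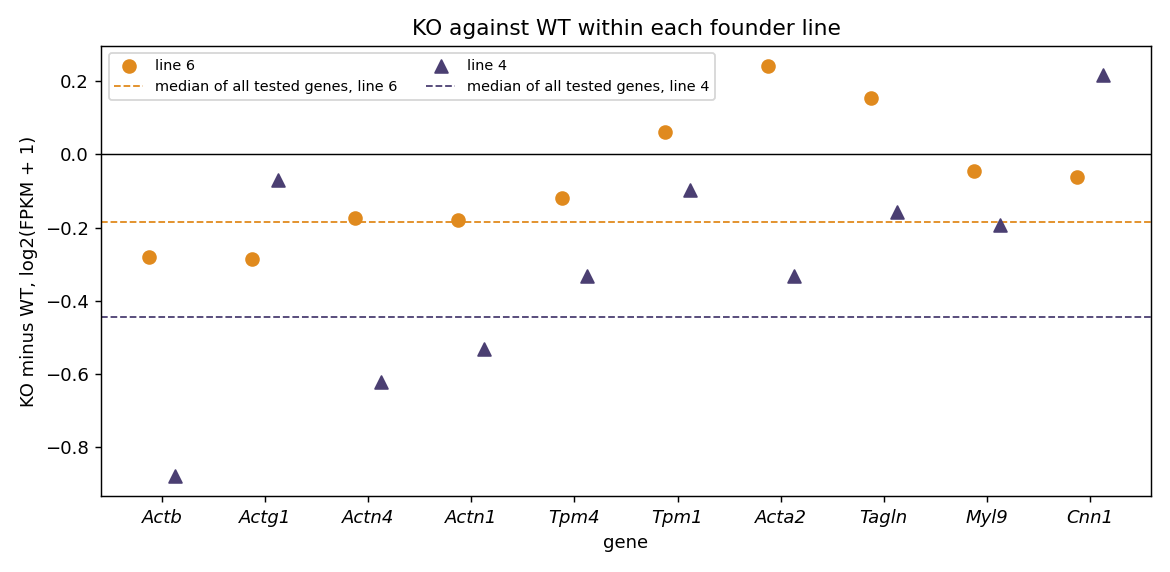
KO minus WT of log2(FPKM + 1) for each gene (horizontal axis), with line 6 as orange circles and line 4 as purple triangles. Dashed lines give the median of all tested genes, -0.19 in line 6 and -0.44 in line 4, and Acta2, Tagln, Myl9, Cnn1, Tpm1 and Tpm4 lie above the dashed line of their founder line in both.

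Acta2, Tagln, Myl9, Cnn1, Tpm1, Tpm4 and Actg1 differed more between the founder lines than between KO and WT, while Actb, Actn1 and Actn4 differed more between KO and WT. On centred values Actn1 and Actn4 too differed more between the lines. All 10 members were higher in line 6 than in line 4 on average, against 48.4% of tested genes. For 7 of them both line 6 libraries lay above both line 4 libraries, against 16.3% of tested genes. These are Actg1, Acta2, Tagln, Myl9, Cnn1, Tpm1 and Tpm4. The median difference of the members was 0.40 on the log2 scale, against -0.01 for all tested genes. The members share libraries and are not replicates, so these counts describe them and test nothing.

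Myl9 had the largest line difference. It stood at 20.2 and 20.9 FPKM in the KO and WT clones of line 6, against 8.81 and 10.2 FPKM in those of line 4. That is 2.29 times as much in line 6 among the KO clones and 2.04 times among the WT clones. Tagln stood at 53.0 and 47.5 FPKM in line 6, against 28.4 and 31.8 FPKM in line 4, and Acta2 at 65.1 and 54.9 FPKM, against 33.9 and 42.9 FPKM. Cnn1 stood at 6.03 and 6.33 FPKM in line 6, against 3.75 and 3.09 FPKM in line 4. In each of these 4 genes the gap between the lines exceeds the gap between KO and WT within a line.

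In the fit of the lines alone, limma called 1.98% of tested genes and 0 members. Of the members 3 had an unadjusted p under 0.05, against 1029 of the 11932 tested genes. Myl9 came nearest, with a difference of 1.04 (95% interval 0.37 to 1.71, limma adjusted p = 0.0938). Without a filter Myl9 did not pass either (limma adjusted p = 0.236). When single libraries were left out, its difference ran from 0.94 to 1.14 and that of Cnn1 from 0.59 to 0.81. Leaving out a library leaves 1 library in a line, so only the size is given. The fit of the lines alone counts the difference between genotypes as spread. With genotype as a term, limma called 3.67% of tested genes as higher in line 6, among them 4 members. Myl9 (limma adjusted p = 0.000103), Tagln (0.0079), Cnn1 (0.0214) and Acta2 (0.0218) rose in line 6 in that fit, at differences of 1.04, 0.72, 0.70 and 0.63. The 4 calls held with a robust spread (limma adjusted p of 9.08e-05 to 0.0226). Both fits gave all genes of one level the same spread. On centred values with genotype as a term, 16% of tested genes were called higher in line 6, and 7 members were, with Tpm1, Tpm4 and Actn4 added. In the fit of the lines alone on centred values, 16.4% of tested genes were called higher in line 6, and the same 7 members passed (limma adjusted p = 0.00292 for Myl9 to 0.0407 for Cnn1). After quantile normalization 16.1% of tested genes were, and 6 members passed, all of these but Tpm1 (limma adjusted p = 0.006 for Myl9 to 0.04996 for Cnn1). Each line is 1 founder, so the line difference is that between these 2 founders and their culture.

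The actinins and Actb were not called between the lines with genotype as a term. Actb differed by 0.17 (95% interval -0.15 to 0.49, limma adjusted p = 0.62), as it was higher in line 6 among the KO clones and lower in line 6 among the WT clones. Without KO replicate 1 the line difference of Actb was -0.27, that of Actn1 -0.11 and that of Actn4 -0.02. Actg1 differed by 0.32 (95% interval -0.0019 to 0.65, limma adjusted p = 0.237), and Tpm1 by 0.47 (95% interval 0.08 to 0.86, limma adjusted p = 0.12).

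**Figure D4:**
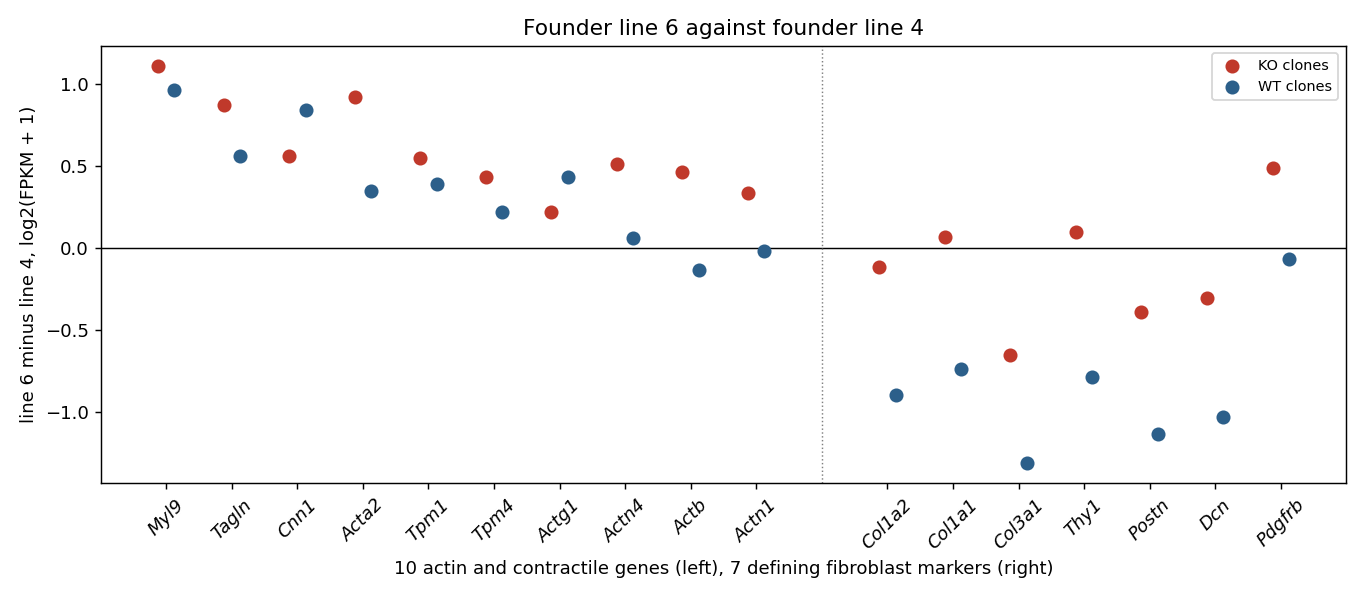
Line 6 minus line 4 of log2(FPKM + 1) for the 10 genes and for 7 defining fibroblast markers (horizontal axis), with the pair of KO clones red and the pair of WT clones blue. The contractile genes Myl9, Tagln, Cnn1 and Acta2 lie above 0 in both pairs, and Col1a2, Col3a1, Postn and Dcn lie below 0 in both.

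Since Acta2, Tagln, Cnn1 and Myl9 are also expressed by fibroblasts, the feeder markers are set beside them. The 10 defining fibroblast markers summed to 94.3 and 69.9 FPKM in the KO and WT clones of line 6, against 104 and 137 FPKM in those of line 4, so their sum was lower in line 6 while that of Acta2, Tagln, Cnn1 and Myl9 was higher, at 144 and 130 FPKM against 74.9 and 88.1 FPKM. Of 7 tested defining markers, 1 (Pdgfrb) was higher in line 6, against 48.4% of tested genes, and their median line difference was -0.51. With genotype as a term limma called 5.46% of tested genes as lower in line 6, and Col3a1 (limma adjusted p = 0.000296), Postn (0.0114) and Dcn (0.027) fell there. In the fit of the lines alone they did not pass (limma adjusted p = 0.133, 0.329 and 0.4003). Acta2 per Col1a1, a collagen of fibroblasts, was 2.46 and 3.04 in the KO and WT clones of line 6, against 1.34 and 1.39 in those of line 4. Some markers of the wider fibroblast list went the other way: S100a4 stood at 98.9 and 91.7 FPKM in line 6, against 33.7 and 47.1 FPKM in line 4 (limma adjusted p = 0.0289 in the fit of the lines alone). Of the 23 tested markers of that list, 9 were higher in line 6, against 48.4% of tested genes.

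On uncentred values within a line, Acta2 and Tagln had the signs of the defining fibroblast markers in both lines. Myl9 had their sign in line 4 only, and Cnn1 had it in neither line. Of the 7 tested defining markers, 7 were listed higher in KO in line 6 and 7 lower in KO in line 4, with medians of 0.28 and -0.39. Among all tested genes the share above WT in the KO clone was 12.3% in line 6, and the share below WT was 97.6% in line 4, so the sign in line 4 is that of nearly all genes. Relative to the median gene of the library, 7 of the 7 markers lay above it in line 6 and 4 in line 4. Of the 11932 tested genes, 4590 did in line 6 and 6609 in line 4. On that relative scale the markers' medians were 0.42 and 0.08 in lines 6 and 4. Acta2 lay there at 0.39 and 0.13, Tagln at 0.30 and 0.31, Cnn1 at 0.08 and 0.68 and Myl9 at 0.10 and 0.27. The split of signs between these genes is therefore absent on that scale. Uncentred, Acta2 lay at 0.24 and -0.33 and Tagln at 0.15 and -0.16 in lines 6 and 4. Cnn1 lay at -0.06 and 0.22 and Myl9 at -0.05 and -0.19, also uncentred. The labels describe depletion of feeders for genotyping and do not mention it for RNA isolation, and the part of feeder cells in these values was not tested. In bulk samples, more cells of a type and more RNA per cell cannot be told apart. The 9 markers of extraembryonic endoderm summed to 57.7 and 66.9 FPKM in the KO and WT clones of line 6 and 40.4 and 53.6 FPKM in those of line 4. Of them 4 were tested, and 4 were higher in line 6, against 48.4% of tested genes. Lamb1, a laminin chain, was the most abundant, at 37.3 and 41.7 FPKM in line 6, against 33.2 and 40.4 FPKM in line 4, and did not pass (limma adjusted p = 0.999 for the lines alone and 0.83 with genotype as a term). Lama1, another laminin chain, stood at 14.3 and 16.8 FPKM in line 6, against 5.47 and 9.18 FPKM in line 4, and rose in line 6 with genotype as a term (limma adjusted p = 0.000179) but not for the lines alone (0.0972). Dab2, an endocytic adaptor, stood at 2.53 and 3.496 FPKM in line 6, against 0.489 and 1.37 FPKM in line 4, and rose in both fits (limma adjusted p = 0.00234 for the lines alone). Their part in the line difference of the contractile genes was not tested either.

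Other genes of the actin system were read from 6 lists, and 0 of their tested genes passed between KO and WT in the fit without a block. Of 23 tested factors of actin turnover, 21 were lower in KO in both lines, with a median difference of -0.28, against 86.3% and -0.32 for all tested genes. The most abundant were Cfl1, cofilin, which severs filaments, Tmsb10, which binds monomers, and Pfn1, profilin, which feeds monomers to growing ends. Of these, Pfn1 stood at 386 and 451 FPKM in the KO and WT clones of line 6, against 226 and 304 FPKM in those of line 4. Cfl1 stood at 473 and 558 FPKM, against 307 and 399 FPKM. With genotype as a term Pfn1 and Cfl1 rose in line 6 (limma adjusted p = 0.00384 and 0.0226), as 2 of 23, against 3.67% of tested genes. Tmsb10 did not pass (0.901). In the fit of the lines alone neither passed (limma adjusted p = 0.685 and 0.847).

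Of the 19 genes listed for the Arp2/3 complex, which nucleates branched filaments, and its activators, 18 were found and tested, and 17 were lower in KO in both lines, with a median of -0.32, again against 86.3% and -0.32 for all tested genes. Arpc3, a subunit, stood at 110 and 102 FPKM in KO, against 132 and 147 FPKM in WT. Actr3, one of the actin-related subunits, stood at 86.0 and 96.1 FPKM in KO, against 101 and 179 FPKM in WT, so the WT clone of line 4 was high. Cdc42, a small GTPase upstream of the complex, stood at 109 and 89.3 FPKM in KO, against 127 and 126 FPKM in WT. With genotype as a term, 0 of the 18 passed between the lines, where limma called 3.67% of tested genes as higher and 5.46% as lower in line 6.

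Myl6, the essential light chain of nonmuscle myosin, stood at 339 and 245 FPKM in KO, against 434 and 326 FPKM in WT, and was lower in KO in both lines by 0.35 and 0.41. Myl12b, another regulatory light chain, stood at 125 and 161 FPKM in the KO clones of lines 6 and 4, against 161 and 164 FPKM in the WT clones. Myl12b did not share the line difference of Myl9, at -0.19 (limma adjusted p = 0.615 with genotype as a term). Myh14, a heavy chain, fell in line 6 with genotype as a term (-0.76, limma adjusted p = 0.00932), and did not pass in the fit of the lines alone (0.257).

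Of 19 tested nonmuscle paralogs and bundling proteins, 12 were lower in KO in both lines, against 86.3% of tested genes. With genotype as a term 2 of the 19, Zyx and Pdlim7, rose in line 6, where 3.67% of tested genes did. Neither passed in the fit of the lines alone (limma adjusted p = 0.102 and 0.533). Zyx, zyxin of adhesions and stress fibres, stood at 9.26 and 8.37 FPKM in the KO and WT clones of line 6, against 3.63 and 4.38 FPKM in those of line 4 (limma adjusted p = 0.000511 with genotype as a term). The most abundant were Cnn3 at 134 and 135 FPKM in the KO clones of lines 6 and 4, against 151 and 207 FPKM in the WT clones, Tpm3 at 138 and 99.3 FPKM, against 165 and 135 FPKM, and Ezr, ezrin, at 81.0 and 93.9 FPKM, against 97.4 and 133 FPKM. Cnn3, the calponin of non-muscle cells, did not share the line difference of Cnn1: it lay at -0.23 (limma adjusted p = 0.527 with genotype as a term).

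Of 12 muscle-type paralogs 6 passed the filter. Tpm2 stood at 25.3 and 18.5 FPKM in the KO clones of lines 6 and 4, against 26.5 and 24.7 FPKM in the WT clones, and Actn3 at 10.7 and 11.3 FPKM, against 16.5 and 12.6 FPKM. Actg2, the enteric smooth muscle actin, stood at 6.95 and 3.78 FPKM in KO, against 6.06 and 4.42 FPKM in WT. Acta1, the skeletal muscle actin, stood at 3.76 and 2.96 FPKM in the KO and WT clones of line 6, against 1.15 and 1.32 FPKM in those of line 4, and was the 1 gene of these 6 lists that passed in the fit of the lines alone (limma adjusted p = 0.0195). Myl7, an atrial myosin light chain of the cardiac marker list, stood at 2.06 and 2.36 FPKM in line 6, against 3.74 and 4.95 FPKM in line 4, and fell in line 6 with genotype as a term (limma adjusted p = 0.0118) but not for the lines alone (0.267). Actg2 and Acta1 share sequence with Acta2.

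Srf itself stood at 14.6 and 10.3 FPKM in the KO clones of lines 6 and 4, against 19.6 and 11.5 FPKM in the WT clones, and its line difference did not pass (limma adjusted p = 0.0624 with genotype as a term). Of 15 tested Srf cofactors and targets, 13 were lower in KO in both lines, against 86.3% of tested genes. Anxa1, annexin, stood at 41.4 and 33.8 FPKM in the KO and WT clones of line 6, against 15.3 and 19.6 FPKM in those of line 4, and rose in line 6 with genotype as a term (limma adjusted p = 2.15e-05). Fos, an immediate early gene, stood at 23.5 and 38.2 FPKM in line 6, against 35.7 and 59.3 FPKM in line 4, and fell in line 6 (limma adjusted p = 0.0379 with genotype as a term). Neither passed in the fit of the lines alone (limma adjusted p = 0.0821 for Anxa1 and 0.6803 for Fos). Between KO and WT, Fos differed by -0.70 over both lines and did not pass (limma adjusted p = 0.445). With the founder line as a block its limma adjusted p was 0.067, 0.0489 with a robust spread and 0.705 on centred values. Of the 15 genes, 6 were higher in line 6, against 48.4% of tested genes. Csrp1, an actin-associated LIM protein, stood at 29.6 and 27.0 FPKM in KO, against 31.3 and 37.7 FPKM in WT.

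Among 5277 other named genes that averaged 10 FPKM or more, those with a profile over the 4 libraries most like the mean of Acta2, Tagln, Cnn1 and Myl9 were Car4, Fasn, Cenpb, Pdlim7 and Plac9. Their root mean square distance on the log2 scale, each gene centred on its own mean, was 0.0513 to 0.089. Car4 stood at 16.2 and 16.8 FPKM in the KO and WT clones of line 6, against 8.87 and 10.2 FPKM in those of line 4. The genes most like the mean of Actb and Actg1 were Zfp367, Ptch1, Dync1li1, Alyref and Ptcd3, at 0.00608 to 0.0118. In line 4 KO minus WT was -0.88 for Actb and -0.07 for Actg1, so their mean is the profile of neither actin. With 4 libraries many genes have a like profile.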

How the data were processed

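RNA of 4 clones, 2 KO and 2 WT, was measured. The deposited values, 1 per gene and library, are FPKM that the authors scaled to spike-ins, per the file headers. Per the submitters' processing notes, the build was mm9 and the tools were TopHat2 2.0.9, Bowtie 0.12.8, HTSeq, edgeR and affy. The sources used here give neither their roles nor the way of spike-in scaling. Per the labels' protocols, 1 µg of RNA received 2 µL of ERCC mix 1 or mix 2, diluted 100-fold; the mix used for each clone is not given there. Of 23376 entries per file, 92 were spike-ins and 25, renamed as dates or day numbers, had no partner; 23259 genes remained. FPKM do not give the depth, so no counting interval is given.

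Tests used log2(FPKM + 1), a scale that understates changes of low genes. The 11932 genes that averaged 1 FPKM or more were tested with limma 3.58.1 in R 4.3.3 (trend, two-sided), with Benjamini-Hochberg adjustment over all of them and a threshold of 0.05. The code of the fit was checked on simulated data with independent noise and planted changes larger than any member's difference. That check does not measure how the fit handles differences of the size seen here. Genotype and line were fitted separately, and together as alternatives. Replicate numbers are founder lines and pair the samples: deviations of KO and WT of a line correlated across genes at r = 0.70. The prior df was infinite, so genes of one level shared a spread, in the fit of the lines alone and, on uncentred values, with the block or genotype as a term. It was 4.54 for the block or the genotype term on centred values and 16.4 for KO against WT without the block. P-values measure the spread between these clones. The members and lists were chosen with earlier results of these data known. Named are all members, Kat2a, the 3 most abundant genes of each pathway and marker list, genes past the KO against WT test and the nearest profiles; Zyx, Pdlim7, Myh14, Srf, Pdgfrb, Postn and Dcn were chosen after their values were seen. Alternatives were no filter, a pseudocount of 0.1, centring, quantile normalization, leaving out each library, the blocks, and 2 added after seeing the data (genotype as a term on centred values, or with a robust spread). The reference at hand is GRCm38, so no gene coordinates are given for the mm9 files. The count of 1 list and 1 gene of it are not reported here.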

Additional observations from a re-analysis of the deposited data

Results flagged for a closer look

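For 4 members KO lay above WT in one line and below it in the other. Each line has 1 pair of clones, so the difference between the lines was not tested. The KO minus WT difference of Acta2 in line 6 exceeded that in line 4 by 0.57 on the log2 scale, that of Tagln by 0.31 and that of Tpm1 by 0.16, while that of Cnn1 was lower in line 6, at -0.28. Among the other tested genes named, the same was seen for the muscle actins Actg2 (0.35) and Acta1 (0.37), for Anxa1 (0.63) and for Zyx (0.35). It was also seen for the fibroblast markers Fn1 (1.12), S100a4 (0.58), Sparc (0.61), Col1a1 (0.81), Col1a2 (0.78), Col3a1 (0.66), Postn (0.75), Dcn (0.72) and Pdgfrb (0.55).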

How the results depend on the processing

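Of the genes tested, 2 passed between KO and WT and 236 between the lines. Without a filter both counts were 0, with 1744 and 2210 genes at an unadjusted p under 0.05. Centring gave 0 and 3602, quantile normalization 0 and 3865, and leaving out single libraries 0 to 133 and 7 to 1607. The founder line as a replicate block gave 95, 91 with a robust spread and 33 on centred values. Genotype as a term gave 1089 between the lines, 1096 with a robust spread and 3531 on centred values. The members' median between KO and WT changed sign with centring (0.16, also with the block), with quantile normalization (0.23) and without single libraries (-0.48 to 0.12). Within lines 6 and 4 it was 0.055 and 0.20 after centring and 0.14 and 0.21 after quantile normalization. Centring and quantile normalization remove the lower level of most genes in KO. The members' median between the lines stayed above 0 under every alternative run, at 0.35 to 0.60 without single libraries.

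Single members changed sign between KO and WT as follows. After centring, with and without the block, Actg1 lay at 0.13, Acta2 at 0.26, Tagln at 0.30, Myl9 at 0.19, Tpm1 at 0.29 and Tpm4 at 0.079. After quantile normalization they lay at 0.26, 0.31, 0.35, 0.21, 0.34 and 0.13, and Actn1 at 0.0026. Without single libraries Actg1 ran from -0.39 to 0.038, Acta2 from -0.51 to 0.41, Tagln from -0.44 to 0.44, Myl9 from -0.68 to 0.44, Cnn1 from -0.34 to 0.50 and Tpm1 from -0.29 to 0.26. Between the lines Actb ran from -0.27 to 0.61, Actn1 from -0.11 to 0.42 and Actn4 from -0.024 to 0.60. The replicate block changed the call of Actb and of no other member. The depth is unknown, so what it limits could not be given.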
